A study of Mus musculus with 8 samples.

Results

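Translation initiation factors are the proteins that bring the small ribosomal subunit, the initiator tRNA and the mRNA together at the start codon. The genes described here are the 74 of 41709 genes in the deposited RNA-seq table whose symbol begins with Eif and a number from 1 to 6, leaving out pseudogene symbols that hold "-ps". They were grouped by the number of the factor, from eIF1 to eIF6. Of the 74, 53 passed the filter on low values explained below and were tested, whereas 21 were not.

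The study lowered *Uba1*, which encodes the main E1 enzyme that activates ubiquitin, in mouse muscle, and the comparison asks how the muscle transcriptome differs when this enzyme is low. Pools of siRNAs were electroporated into the tibialis anterior (TA) of male C57BL/6J mice aged 3 months, and the muscles were collected 7 days later, 4 of them with *Uba1* siRNAs and the other 4, in the opposite legs of the same mice, with control non-targeting (NT) siRNAs. All 8 muscles were therefore electroporated, and replicates with the same number come from the legs of a single mouse. All muscles with NT siRNAs are labelled as right and all with *Uba1* siRNAs as left, so that leg and siRNA cannot be told apart. The treatment tags name UBA1, UBA2, UBA3 and UBA4 for replicates 1 to 4, but the titles, the descriptions and the study's methods name UBA1 for all 4, and the groups follow these. The values are TPM, transcript abundances per length that sum to 1000000 in each muscle, so genes can be compared with each other, but the number of reads behind a value is unknown. Each muscle was measured whole. In such bulk RNA, fewer cells of a type and less RNA per cell cannot be told apart.

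*Uba1* mRNA, the target, averaged 60.6 ± 2.11 TPM in the control muscles and 15.9 ± 6.83 TPM in those with its siRNAs (SD, n = 4 each). The adjusted p of its log2FC of -1.98 (standard error 0.290) was 0.0527, or 0.0278 with mouse as a block (limma, Benjamini-Hochberg), and the groups did not overlap (exact permutation test, two-sided, p = 0.0286, the smallest that 4 against 4 allow). All 10 markers of skeletal muscle fibers were expressed, summing to 107763–116107 TPM with NT siRNAs and 86706–117719 TPM with *Uba1* siRNAs. The summed markers of leukocytes were at 236–636 and 230–644 TPM, those of endothelial cells at 129–194 and 143–183 TPM, those of fibroblasts at 555–1146 and 721–1417 TPM, and those of bone and tendon at 9.84–26.9 and 27.9–43.2 TPM. The bone and tendon sums did not overlap between groups, and in each of the 4 mice the fibroblast sum was higher in the leg with *Uba1* siRNAs. At an unadjusted P under 0.05, 2 of 7 fibroblast markers and 3 of the 4 tested bone and tendon markers were higher, or 4 and 3 with the block (limma; all genes, 16.0% and 22.4%). The part of these cells in the values of the initiation factors was not tested. None of these markers was at 0 in all muscles. Mitochondrially encoded transcripts accounted for 42.1–45.7% of all TPM in the control muscles. With *Uba1* siRNAs they took 40.2% and 39.9% in replicates 1 and 3, and 50.3% and 46.5% in replicates 2 and 4.

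Initiation proceeds in steps that fit the numbering of the factors. eIF1, eIF1A and eIF3 bind the small subunit, eIF2 with GTP brings the initiator tRNA, and the eIF4 group recognizes the cap of the mRNA and unwinds its leader. After scanning to the start codon, eIF5 triggers GTP hydrolysis on eIF2, eIF5B joins the large subunit, and eIF2B reloads eIF2 with GTP. In skeletal muscle, control of this pathway by mTORC1, which releases eIF4E from its binding proteins, and by kinases that phosphorylate the α subunit of eIF2 is well known to set the rate of protein synthesis.

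Of the 74 genes, 21 belong to eIF1, 16 to eIF2, 14 to eIF3, 18 to eIF4, 4 to eIF5 and 1 to eIF6. Those tested, which reached 1 TPM in 4 or more of the 8 muscles, number 5, 15, 14, 15, 3 and 1. All 14 eIF3 genes were therefore tested, whereas most of the eIF1 group was not. The untested eIF1 genes are 16 relatives named after *Eif1ad* with a number, all on chromosome 12, of which 14 were at 0 TPM in every muscle and 2 had a value in a single muscle. Altogether 16 members were at 0 TPM in all 8 muscles. The 5 others below the filter were 2 of these *Eif1ad* relatives, *Eif4a3l1*, *Eif4e1b* and *Eif5a2*. *Eif5a2*, the second gene for eIF5A, was the highest of them at 0.36–0.73 TPM. Of the 74 symbols, 73 were found in the GENCODE M39 annotation of GRCm39, and the other, *Eif2c5*, an older name of the Argonaute family rather than an eIF2 subunit, was at 0.

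The initiation factor mRNAs were well expressed in TA muscle. Their median level with NT siRNAs was 32.9 TPM, compared with 6.95 TPM for all 11530 genes tested, and 48 of the 53 lay above the latter. The 6 genes above 100 TPM were *Eif1* (392 ± 50.3 TPM), *Eif5a* (253 ± 12.7 TPM), *Eif4g1* (187 ± 12.1 TPM), *Eif4g2* (131 ± 7.22 TPM), *Eif3h* (124 ± 5.70 TPM) and *Eif4a2* (113 ± 5.37 TPM; SD, n = 4 muscles). They encode the start-codon fidelity factor eIF1, the hypusinated factor eIF5A, a pair of eIF4G-type scaffolds, an eIF3 subunit and an RNA helicase. The first 3 did not overlap with each other between muscles, whereas *Eif4g2* (124–141 TPM) overlapped with *Eif3h* (119–132 TPM). Another 40 genes had from 10 to 100 TPM. The 7 under 10 TPM were *Eif2d*, *Eif1a*, *Eif2b3* (4.45 TPM), 3 of the 4 kinases of eIF2α and *Eif4ebp3* (0.857 TPM).

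**Figure D1:**
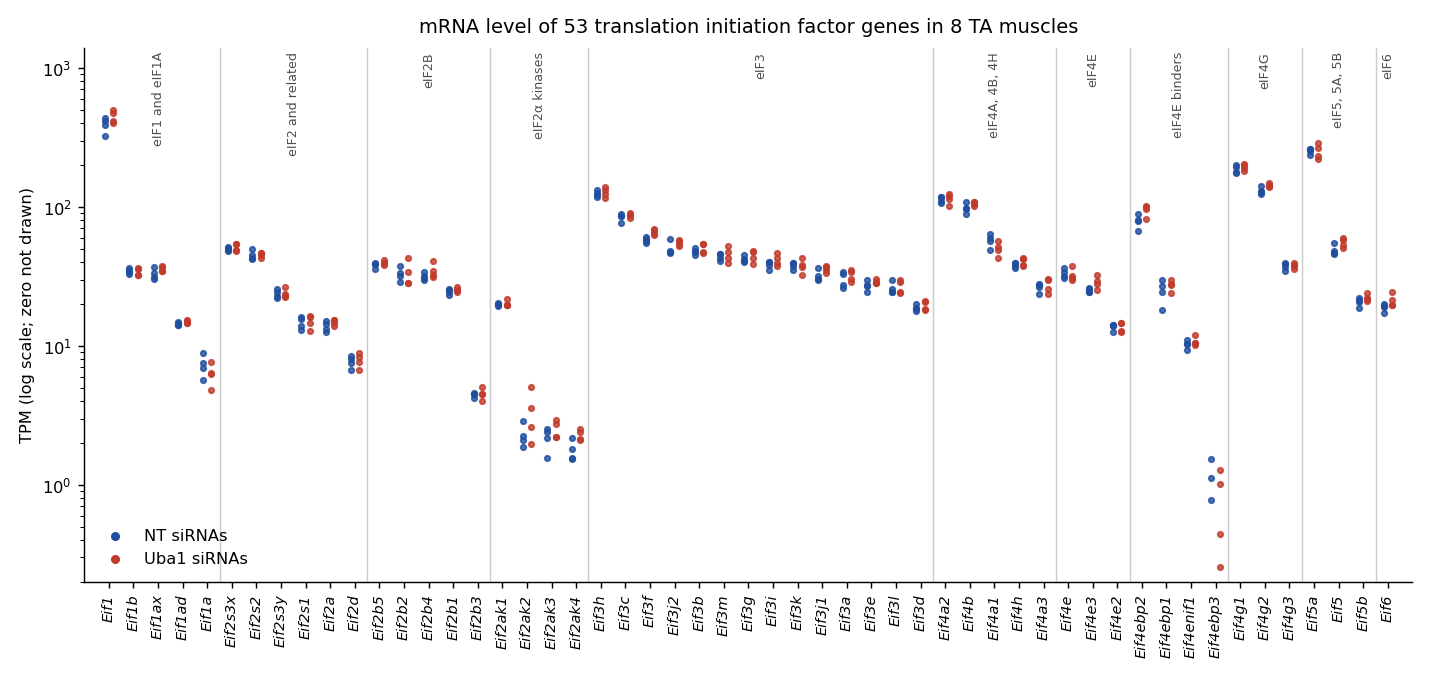
TPM (log axis) of each of the 53 tested genes in the 4 muscles with NT siRNAs (blue) and the 4 with *Uba1* siRNAs (red), ordered by role and then by mean level with NT siRNAs; a value of 0 (*Eif4ebp3*, NT replicate 3) is not drawn. The genes span from 0.857 TPM (*Eif4ebp3*) to 392 TPM (*Eif1*) with NT siRNAs, and the red and blue points of nearly every gene overlap.

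Levels within a complex were not equal. The eIF3 subunits ranged from 18.7 TPM (*Eif3d*) to 124 TPM (*Eif3h*), and the eIF2B subunits from 4.45 TPM (*Eif2b3*) to 38.3 TPM (*Eif2b5*). For eIF2, the mRNA of the α subunit *Eif2s1* was at 14.6 TPM, that of the β subunit *Eif2s2* at 44.8 TPM, and those of the γ subunit at 49.9 TPM (*Eif2s3x*, on the X chromosome) and 23.7 TPM (*Eif2s3y*, on the Y chromosome). The genes also varied little from mouse to mouse. The median coefficient of variation was 6.71% with NT siRNAs and 8.23% with *Uba1* siRNAs, compared with 9.77% and 12.1% for all genes tested. This comparison was not matched for level, and the median level of the members was above that of all genes (32.9 and 6.95 TPM).

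The mRNA levels of the initiation factors differed little between *Uba1* and NT siRNAs. No member passed an adjusted p of 0.05 (limma on log2(TPM + 1), Benjamini-Hochberg adjustment over all 11530 genes tested), and the lowest adjusted p of a member was 0.184. Among all genes tested, 0.026% passed. The study listed changed mouse mRNAs at P under 0.05 together with a fold-change cut, and by another test. No fold-change cut was applied here. At an unadjusted P under 0.05, 4 of 53 members (7.55%) were higher, namely *Eif3f*, *Eif4ebp2*, *Eif2ak4* and *Eif4e3*, and 0 were lower. The corresponding shares of all genes tested were 16.0% higher and 1.98% lower, and the difference between these shares was not tested. With the mouse as a block, 8 of 53 members were higher and 0 lower, compared with 22.4% and 2.8% of all genes, and the lowest adjusted p was 0.120, where 0.494% of all genes passed an adjusted p of 0.05. The additional 4 were *Eif5*, *Eif3j1*, *Eif2ak2* and *Eif1*. The groups did not overlap for a single member, *Eif3f*, whereas 10.6% of all genes were higher and 1.01% lower without overlap. The rank-based Kruskal-Wallis test cannot pass the adjustment at 4 against 4, so its 0 members there (0.0% of all genes) carry no information. At an unadjusted P under 0.05 by this test, 2 members were higher and 0 lower. The shares of all genes were 17.5% and 1.71%, and 19.2% in either direction.

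The fold changes themselves were small. The log2FC, which is the mean log2(TPM + 1) with *Uba1* siRNAs minus that with NT siRNAs, lay between -0.19 (*Eif4a1*) and 0.35 (*Eif2ak2*), and it understates the change of low genes. The 95% interval from limma reached a median of 0.175 to either side and lay within -0.5 to 0.5 for 50 of the 53, with the widest (0.661 to either side) for *Eif4ebp3*. A log2FC above 0 was seen for 45 members (84.9%), compared with 81.8% of all genes tested, with medians of 0.057 and 0.106. This excess depended on the scaling. TPM are shares of a fixed total, and when muscles were instead scaled by the median ratio of genes, the median of all genes moved by -0.10 to 0.0036, while that of the members became -0.062. In that scaling, 17 of 53 members (32.1%) lay above 0, compared with 51.4% of all genes, and with quantile normalization 25 members (47.2%) compared with 54.6%. Relative to the median of all genes in the unscaled values, 17 of 53 members were likewise above and the others below. With median-ratio scaling, 0 members were higher and 3 lower at an unadjusted P under 0.05 (*Eif4a1*, *Eif1b* and *Eif4e2*), where 4.57% and 6.11% of all genes were called, and 28 members changed sign. With the block added to this scaling, 2 members, *Eif2ak4* and *Eif2ak2*, were higher and 3 lower (all genes, 7.19% and 8.47%). With quantile normalization, 0 were higher and 1 lower (all genes, 4.45% and 5.16%).

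**Figure D2:**
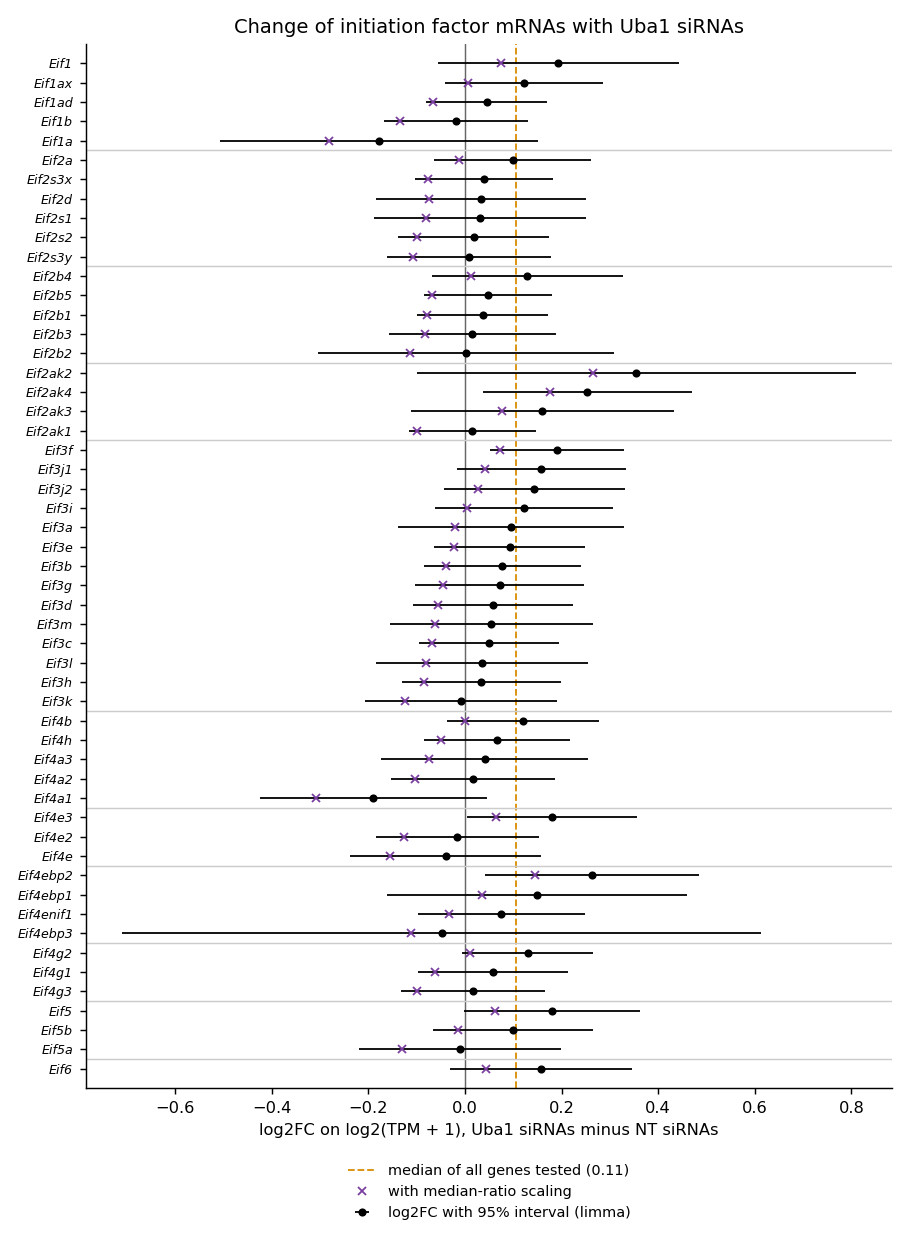
The log2FC of each of the 53 tested genes, on log2(TPM + 1) and as *Uba1* siRNAs minus NT siRNAs, with its 95% interval from limma (black), ordered by role, beside the log2FC after median-ratio scaling (purple crosses). Most points lie between 0 and the dashed line at 0.11, the median of all genes tested, and the crosses are shifted to the left, across 0 for 28 genes.

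The small differences also followed particular muscles. Compared with the mean with NT siRNAs, the median member was higher by 0.16 (log2) in replicate 1 and by 0.13 in replicate 3 with *Uba1* siRNAs, but differed by -0.020 in replicate 2 and 0.021 in replicate 4. The medians over all genes tested in these muscles were 0.19, 0.19, 0.014 and 0.031. Replicates 1 and 3 are the muscles with the lowest mitochondrial share and replicates 2 and 4 those with the highest, and 35 of 53 members (66.0%) were higher in both of the former than in both of the latter, as were 57.8% of all genes tested. The part of the mitochondrial share in these levels was tested only by rescaling the TPM without mitochondrial genes, which gave medians of 0.072, 0.16, 0.034 and 0.094 in replicates 1 to 4, compared with 0.12, 0.18, 0.12 and 0.10 for all genes. Between the legs of a mouse, 51 of 53 members were higher with *Uba1* siRNAs in mouse 1 and 44 in the third pair, and 23 in each of the others (96.2%, 83.0% and 43.4%). Of all genes tested, 83.3%, 56.1%, 81.8% and 61.8% were higher in pairs 1 to 4. Among muscles with NT siRNAs, replicate 1 was the lowest of all 8 for 21 members, and replicate 1 with *Uba1* siRNAs was the highest for 27. The summed TPM of all members was 2547, 2714, 2612 and 2802 with NT siRNAs and 2888, 2743, 2885 and 2819 with *Uba1* siRNAs.

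**Figure D3:**
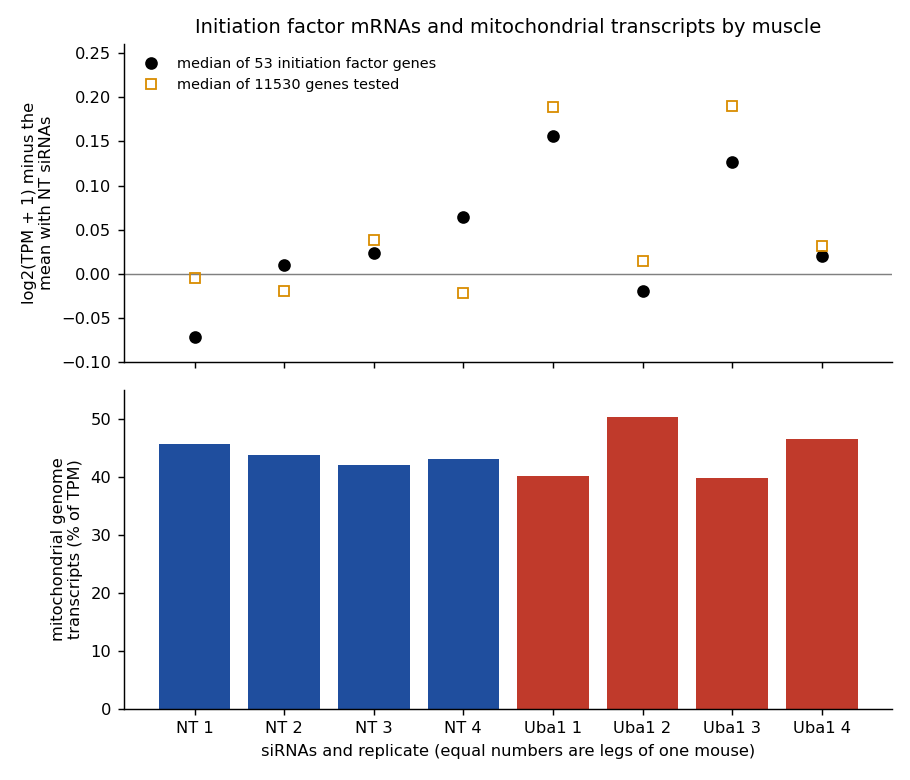
Top, the median difference in log2(TPM + 1) of each muscle from the mean of the 4 muscles with NT siRNAs, over the 53 initiation factor genes (filled) and all 11530 genes tested (open); bottom, the share of TPM from the mitochondrial genome. Replicates 1 and 3 with *Uba1* siRNAs have the highest medians, 0.16 and 0.13 for the members, and the lowest mitochondrial shares, 40.2% and 39.9%.

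Among the factors of scanning and start-codon choice, *Eif1* and *Eif5* were higher in each mouse. *Eif1* (chromosome 11 of GRCm39, 100210670 to 100212922, plus strand) encodes the factor that keeps the scanning ribosome open until the start codon is found. Its mRNA was at 390, 439, 322 and 415 TPM in replicates 1 to 4 with NT siRNAs and at 400, 499, 415 and 474 TPM with *Uba1* siRNAs. The muscles with *Uba1* siRNAs were higher in 4 of 4 pairs, by only a little in mouse 1, and the groups overlapped. The log2FC was 0.19 (standard error 0.111), with an unadjusted P of 0.115 without and 0.0369 with the mouse as a block (limma; adjusted p 0.364 and 0.176). With median-ratio scaling the log2FC was 0.074, and the unadjusted P with the block was 0.363 (limma).

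*Eif5* (chromosome 12, 111502067 to 111514340, plus strand) encodes the GTPase-activating factor of eIF2. It was at 46.0, 48.1, 46.6 and 54.8 TPM with NT siRNAs, and at 50.4, 57.9, 53.5 and 60.0 TPM with *Uba1* siRNAs. It was higher in 4 of 4 pairs, and the groups overlapped through NT replicate 4, the highest of its group. The log2FC was 0.18 (standard error 0.0808), with an unadjusted P of 0.0527 without and 0.0223 with the block (limma). It became 0.062 with median-ratio scaling, with an unadjusted P of 0.350 in the block fit (limma). Of the eIF1 group, *Eif1a*, 1 of the genes for eIF1A, had the lowest log2FC, -0.18 (standard error 0.146, limma adjusted p = 0.511), or -0.28 with median-ratio scaling. Its TPM of 5.72, 7.50, 6.88 and 8.91 with NT siRNAs and 7.69, 4.79, 6.42 and 6.32 with *Uba1* siRNAs overlapped widely. *Eif1ad*, *Eif1ax* and *Eif1b* had log2FC of 0.045, 0.12 and -0.018, none with an unadjusted P under 0.05.

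The subunits of eIF2 deliver the initiator tRNA, and those of eIF2B recycle eIF2. Together with the eIF2-like genes *Eif2a* and *Eif2d*, 0 of 11 genes were at an unadjusted P under 0.05 in either direction. Of all genes, 16.0% were higher and 1.98% lower. All 6 genes of eIF2 and related factors and all 5 eIF2B genes had a log2FC above 0, with medians of 0.032 and 0.037, both under the 0.106 of all genes, of which 81.8% lay above 0. With median-ratio scaling, 0 and 1 of them were above 0, compared with 51.4% of all genes. *Eif2s3x*, the highest of the eIF2 genes, was at 49.2, 48.2, 50.6 and 51.5 TPM with NT siRNAs and at 54.4, 48.6, 54.0 and 48.5 TPM with *Uba1* siRNAs. Its 2 higher values were those of replicates 1 and 3, and its log2FC was 0.040 (95% interval -0.10 to 0.18), -0.077 with median-ratio scaling. *Eif2b5*, which encodes the catalytic subunit of eIF2B, was at 39.0, 39.1, 36.0 and 39.3 TPM and at 39.3, 38.1, 39.6 and 41.6 TPM. Its log2FC was 0.047 (95% interval -0.085 to 0.18), -0.069 with median-ratio scaling.

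The 4 kinases that phosphorylate eIF2α, and so limit initiation under stress, had the highest median log2FC of the roles with more than 1 tested gene, 0.21, with 4 of 4 above 0, and 3 of 4 after median-ratio scaling (all genes, 81.8% and 51.4%). *Eif2ak1*, which encodes the heme-regulated kinase HRI, made up most of their mRNA. It was at 19.8, 20.3, 19.5 and 20.0 TPM with NT siRNAs and at 21.6, 19.6, 19.8 and 19.5 TPM with *Uba1* siRNAs. Its groups overlapped and its log2FC was 0.015 (95% interval -0.12 to 0.15), -0.099 with median-ratio scaling.

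*Eif2ak4* (chromosome 2, 118218950 to 118305868, plus strand) encodes GCN2, the kinase that senses uncharged tRNA when amino acids are short. Its mRNA was low, at 1.55, 1.80, 1.54 and 2.19 TPM with NT siRNAs and at 2.11, 2.39, 2.14 and 2.52 TPM with *Uba1* siRNAs. All pairs were higher with *Uba1* siRNAs, and the groups overlapped through NT replicate 4, the highest of its group. The log2FC was 0.25 (standard error 0.0959), with an unadjusted P of 0.0264 without and 0.0101 with the block (limma; adjusted p 0.227 and 0.120). The unadjusted P was over 0.05 without NT replicate 1 or 3, or *Uba1* replicate 2 or 4, reaching 0.0762. With median-ratio scaling the log2FC was 0.18, with an unadjusted P of 0.143 without and 0.0333 with the block (limma). After quantile normalization it was 0.14, with an unadjusted P of 0.312 without the block (limma).

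*Eif2ak2* (chromosome 17, 79159972 to 79190012, minus strand) encodes PKR, which is activated by double-stranded RNA and is itself an interferon-stimulated gene. Its mRNA was at 2.24, 1.87, 2.88 and 2.10 TPM with NT siRNAs and at 3.57, 2.63, 5.05 and 1.98 TPM with *Uba1* siRNAs. Replicate 3 was highest in each group, and replicate 4 did not follow the other pairs. The log2FC of 0.35 was the highest of all members, but with a standard error of 0.202 its unadjusted P was 0.112 without and 0.0189 with the block (limma). It ranged from 0.17 without *Uba1* replicate 3 to 0.51 without *Uba1* replicate 4, and it was 0.26 with median-ratio scaling. *Eif2ak3*, which encodes the ER-stress kinase PERK, was at 2.16 ± 0.425 TPM and 2.53 ± 0.378 TPM (SD, n = 4 muscles each), and it was higher in 4 of 4 pairs without reaching an unadjusted P of 0.05 in either fit.

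The eIF3 complex, the largest initiation factor, binds the small ribosomal subunit and links it to eIF4G. Of its 14 genes, 13 had a log2FC above 0 (4 after median-ratio scaling and 9 after quantile normalization), with a median of 0.074. Of all genes tested, 81.8% lay above 0 (51.4% and 54.6% after these scalings), with a median of 0.106. At an unadjusted P under 0.05, 1 of the 14 (7.14%) was higher, compared with 16.0% of all genes. *Eif3f* (chromosome 7, 108533574 to 108543245, plus strand) encodes a subunit that is known in muscle as a target of the atrophy ubiquitin ligase MAFbx (atrogin-1). Its mRNA was at 56.6, 59.0, 54.6 and 60.7 TPM with NT siRNAs and at 68.1, 62.4, 68.9 and 64.8 TPM with *Uba1* siRNAs. Every muscle with *Uba1* siRNAs was above every muscle with NT siRNAs, again with replicates 1 and 3 highest. The log2FC was 0.19 (standard error 0.0618), or about 0.073 with median-ratio scaling. The unadjusted P was 0.0127 without and 0.0306 with the block (limma; adjusted p = 0.184 without it), and it stayed under 0.05 with any 1 muscle left out. Scaling ended this call, with an unadjusted P of 0.250 after median-ratio scaling (0.178 with the block) and 0.0600 after quantile normalization (limma).

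*Eif3j1* and *Eif3j2* encode the same loosely attached subunit, eIF3j, and their coding sequences were 99.2% identical. Nearly all windows of 50 bases of the *Eif3j1* coding sequence (732 of 734) also occur in *Eif3j2*, so how reads from there were divided between them is uncertain. Over whole transcripts, 39.3% of the *Eif3j1* windows and 90.8% of the *Eif3j2* windows are found in the other gene. *Eif3j1* was at 29.6, 30.3, 31.6 and 36.2 TPM with NT siRNAs and at 33.3, 35.0, 37.7 and 36.9 TPM with *Uba1* siRNAs, higher in 4 of 4 pairs with overlapping groups. Its log2FC was 0.16 (standard error 0.0776), with an unadjusted P of 0.0710 without and 0.0465 with the block (limma), but it was 0.042 with median-ratio scaling, where the unadjusted P with the block was 0.472. *Eif3j2* had a log2FC of 0.14 (standard error 0.0833), and its share of the summed TPM of both genes was 61.1% ± 0.690 and 60.8% ± 1.28 (SD, n = 4 muscles each). *Eif3h*, the highest eIF3 mRNA, was at 121, 125, 132 and 119 TPM with NT siRNAs and at 138, 115, 133 and 123 TPM with *Uba1* siRNAs. These overlapped fully, and the log2FC was 0.034 (95% interval -0.13 to 0.20), -0.084 with median-ratio scaling.

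The eIF4 group recognizes the mRNA cap. eIF4E binds the cap, eIF4G bridges eIF4E and eIF3, and the 4E-binding proteins (4E-BPs) compete with eIF4G for eIF4E through a shared short motif. The coding stretches around this motif are shown to compare the competing genes. They were read from GRCm39 on the coding strand with GENCODE M39 transcripts, and the capitals mark the 7 codons of the eIF4E-binding motif.
Eif4ebp1: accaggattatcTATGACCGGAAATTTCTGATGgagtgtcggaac
Eif4ebp2: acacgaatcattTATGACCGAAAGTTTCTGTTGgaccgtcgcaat
Eif4g1: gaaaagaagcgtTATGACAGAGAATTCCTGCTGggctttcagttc
The first lies in exon 2 of *Eif4ebp1* (chr8:27763353-27763397, plus strand), the second in exon 2 of *Eif4ebp2* (chr10:61270836-61270880, minus strand) and the third in exon 11 of *Eif4g1* (chr16:20499959-20500003, plus strand). Over the 45 bases, *Eif4ebp1* and *Eif4ebp2* differed at 12, and *Eif4g1* differed from them at 20 and 22.

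*Eif4ebp2* (chromosome 10, 61264032 to 61288567, minus strand) was the predominant 4E-BP mRNA. It was at 79.1, 79.8, 67.3 and 89.1 TPM with NT siRNAs and at 82.2, 99.2, 101 and 96.6 TPM with *Uba1* siRNAs. It was higher in 4 of 4 pairs, and the groups overlapped because *Uba1* replicate 1 was lower than NT replicate 4. The log2FC was 0.26 (standard error 0.0984; 0.15 with median-ratio scaling), with an unadjusted P of 0.0248 without and 0.0274 with the block (limma; adjusted p 0.222 and 0.158). The unadjusted P was over 0.05 without NT replicate 3, or *Uba1* replicate 2, 3 or 4, reaching 0.0708. No window of 50 bases of its transcript occurs in another gene.

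*Eif4ebp1* was at 18.1, 26.8, 24.3 and 29.7 TPM with NT siRNAs and at 24.1, 27.6, 27.5 and 29.6 TPM with *Uba1* siRNAs. The pairs of this gene were higher in 3 of 4 mice, and the log2FC of 0.15 (standard error 0.138; 0.035 with median-ratio scaling) did not pass in either fit. *Eif4ebp3*, the lowest member tested, was at 1.53, 0.781, 0 and 1.11 TPM with NT siRNAs and at 1.28, 0.258, 1.02 and 0.442 TPM with *Uba1* siRNAs. Its log2FC was -0.048 (standard error 0.293) and became 0.19 with a pseudocount of 0.1, so that no direction can be given. *Eif4enif1*, which encodes the eIF4E transporter, had a log2FC of 0.075.

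*Eif4e*, the canonical cap-binding gene, was at 31.0, 32.0, 34.1 and 36.2 TPM with NT siRNAs and at 37.8, 29.8, 31.6 and 30.7 TPM with *Uba1* siRNAs. Replicate 1 was the highest of the group with *Uba1* siRNAs and the only pair that was higher. The log2FC was -0.040 (95% interval -0.24 to 0.16), or -0.16 with median-ratio scaling. *Eif4e3* (chromosome 6, 99602081 to 99643784, minus strand) encodes a family member that binds the cap in a different manner from eIF4E. It was at 25.8, 26.2, 24.3 and 24.5 TPM with NT siRNAs and at 32.3, 28.0, 29.3 and 25.4 TPM with *Uba1* siRNAs. It was higher in 4 of 4 pairs, with *Uba1* replicate 4 within the range of the other group. The log2FC was 0.18 (standard error 0.0782; 0.064 with median-ratio scaling), with an unadjusted P of 0.0466 without and 0.0394 with the block (limma). With 1 muscle left out, the unadjusted P was under 0.05 only without *Uba1* replicate 4 and otherwise over it, up to 0.111.

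The helicase eIF4A unwinds the mRNA leader and is encoded by *Eif4a1* and *Eif4a2*, while *Eif4a3* encodes the related helicase of the exon junction complex. The stretches around the DEAD box, the motif that names this helicase family, are printed because reads must tell these close paralogs apart. Capitals mark the 4 codons of the box.
Eif4a1: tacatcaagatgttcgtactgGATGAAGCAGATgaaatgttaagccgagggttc
Eif4a2: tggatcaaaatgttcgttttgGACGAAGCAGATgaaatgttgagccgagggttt
Both lie in exon 6 of their genes, at chr11:69559518-69559571 (*Eif4a1*, minus strand) and chr16:22928992-22929045 (*Eif4a2*, plus strand) of GRCm39, and they differed at 8 of 54 bases. Over the whole coding sequence, the 2 genes were 77.6% identical and shared no window of 50 bases. *Eif4a1* does share such windows with other genes, mainly its pseudogene *Eif4a-ps4*, over 66.2% of its transcript, so that its level is less certain than that of *Eif4a2*.

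*Eif4a1* had the lowest log2FC of all members. Its mRNA was at 49.2, 59.3, 56.4 and 63.8 TPM with NT siRNAs and at 51.6, 42.8, 48.9 and 56.8 TPM with *Uba1* siRNAs. It was lower in 3 of 4 pairs, and the groups overlapped. The log2FC was -0.19 (standard error 0.104), with an unadjusted P of 0.101 without and 0.0737 with the block (limma). With median-ratio scaling it was -0.31 with an unadjusted P of 0.0197, or 0.00370 with the block, and its sign was the same under all the alternatives tried. *Eif4a2* was at 110, 107, 117 and 118 TPM with NT siRNAs and at 123, 101, 119 and 115 TPM with *Uba1* siRNAs. It had a log2FC of 0.016 (95% interval -0.15 to 0.19), -0.10 with median-ratio scaling. The helicase cofactors *Eif4b* and *Eif4h* had log2FC of 0.12 and 0.066.

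The scaffold *Eif4g1* was at 179, 194, 174 and 200 TPM with NT siRNAs and at 181, 192, 204 and 200 TPM with *Uba1* siRNAs. The groups overlapped, and the log2FC was 0.057 (95% interval -0.098 to 0.21), -0.062 with median-ratio scaling. *Eif4g2*, which encodes the related protein DAP5 that lacks the eIF4E-binding part, was at 131 ± 7.22 TPM and 143 ± 4.06 TPM (SD, n = 4 muscles each). Its log2FC was 0.13 (standard error 0.0603, limma adjusted p = 0.294), or 0.011 with median-ratio scaling.

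**Figure D4:**
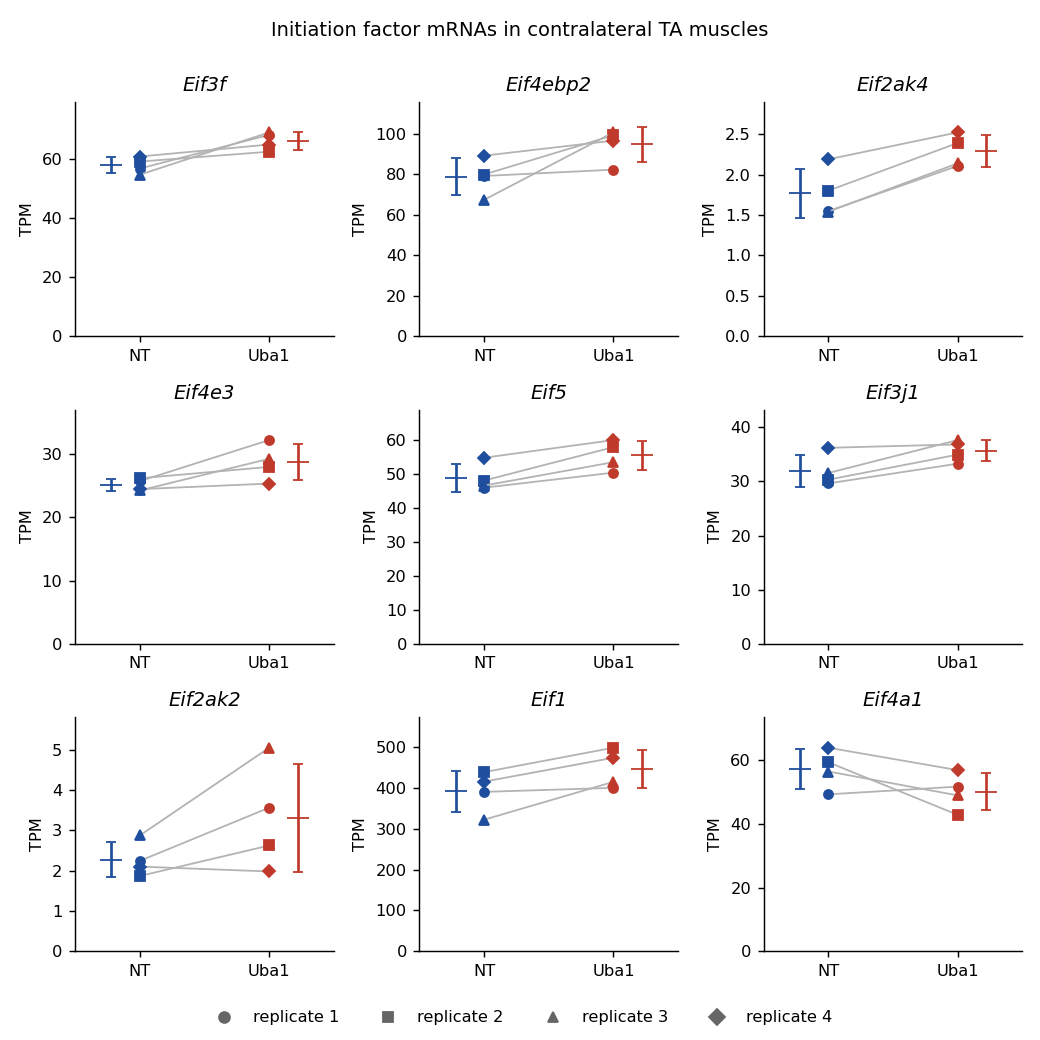
TPM of 9 members in each muscle, with lines joining the legs of a mouse, marker shapes for replicates 1 to 4, and bars for the mean ± SD of 4 muscles beside each group. *Eif3f* is the only member whose groups do not overlap (54.6–60.7 and 62.4–68.9 TPM), and *Eif4a1* is lower with *Uba1* siRNAs in 3 of 4 pairs.

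Of the 4 tested eIF5 and eIF6 genes, 0 were at an unadjusted P under 0.05 without the block (all genes, 16.0% higher and 1.98% lower), and 1, *Eif5*, was higher with it (all genes, 22.4%). *Eif5a* encodes eIF5A, the only protein with hypusine, which helps ribosomes through elongation and termination. It was at 235, 252, 261 and 262 TPM with NT siRNAs and at 290, 219, 265 and 233 TPM with *Uba1* siRNAs. The values with *Uba1* siRNAs were the more spread, with replicates 1 and 3 highest, and the log2FC was -0.011 (95% interval -0.22 to 0.20), -0.13 with median-ratio scaling and 0.0074 with TPM rescaled without mitochondrial genes. *Eif6*, which encodes the factor that keeps the large subunit from joining too early, was at 17.3, 20.1, 19.4 and 19.1 TPM with NT siRNAs and at 24.4, 19.8, 21.5 and 19.6 TPM with *Uba1* siRNAs. The highest value was that of *Uba1* replicate 1, and the log2FC of 0.16 (standard error 0.0836) had an unadjusted P of 0.0921 (limma) and became 0.043 with median-ratio scaling. *Eif5b*, for the GTPase of subunit joining, had a log2FC of 0.10.

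The shares of paralogs in the summed TPM of a family do not depend on the scaling between muscles, and they were compared by their ranges and pairs without a test. *Eif4e3* made up 33.4–36.5% of the mRNA of *Eif4e*, *Eif4e2* and *Eif4e3* with NT siRNAs and 37.0–39.7% with *Uba1* siRNAs, with means of 34.9% ± 1.69 and 38.4% ± 1.13 (SD, n = 4 muscles each). These ranges did not overlap. For single genes, the TPM of 10.6% of all genes tested were higher and 1.01% lower without overlap. No such background was obtained for shares within families. *Eif4a2* made up 66.5% ± 2.19 and 69.6% ± 1.87 of *Eif4a1* and *Eif4a2*, higher in 4 of 4 pairs with overlapping groups. *Eif2ak1* made up 76.2% ± 1.77 and 71.4% ± 3.66 of the kinases of eIF2α, lower in 4 of 4 pairs and lowest in *Uba1* replicate 3 (66.1%), where *Eif2ak2* was highest. *Eif4g3*, a second eIF4G scaffold with the eIF4E-binding part, went from 10.5% ± 0.288 to 10.1% ± 0.0540 of the 3 eIF4G genes, a difference of under 1 percentage point with no overlap.

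**Figure D5:**
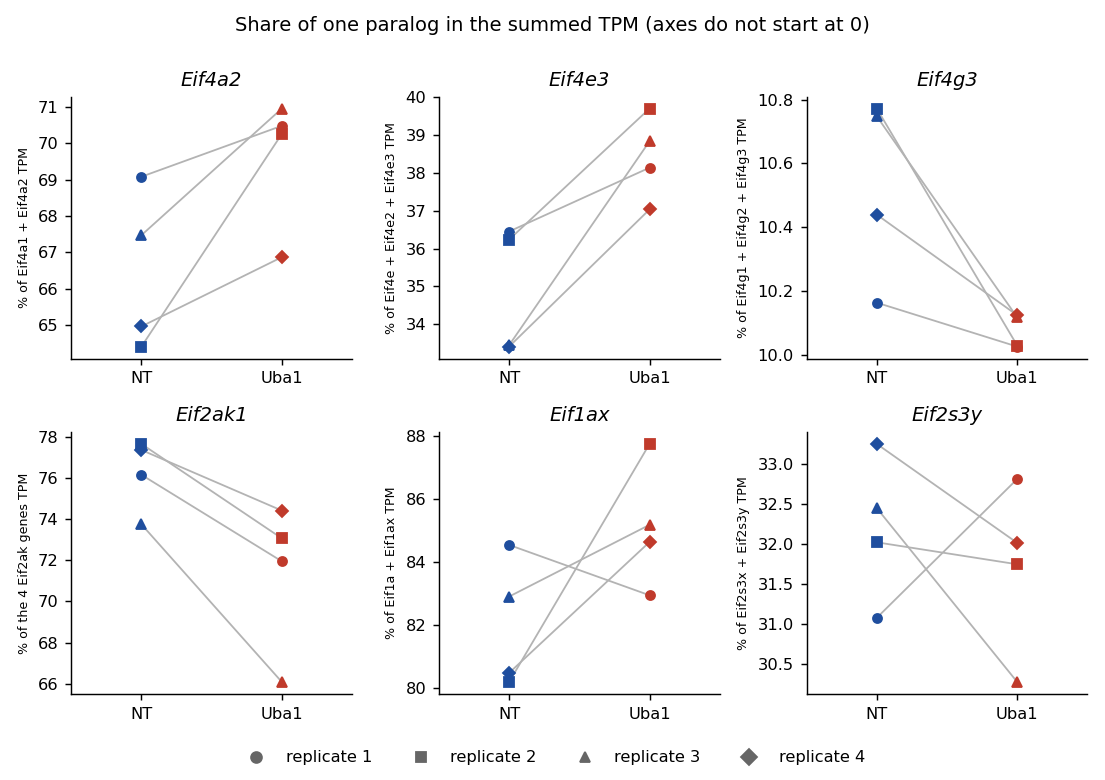
The share (%) of the named paralog in the summed TPM of its family in each muscle, with lines joining the legs of a mouse; the axes do not start at 0. The shares of *Eif4e3* (33.4–36.5% and 37.0–39.7%) and *Eif4g3* do not overlap between groups, those of *Eif4a2*, *Eif2ak1* and *Eif1ax* do, and that of *Eif2s3y* has no common direction.

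The ranges of the shares in the other families overlapped between groups. *Eif1* made up 91.8% ± 1.20 and 92.8% ± 1.09 of *Eif1* and *Eif1b*, *Eif1ax* 82.0% ± 2.08 and 85.1% ± 2.00 of the eIF1A genes, and *Eif2s3y* 32.2% ± 0.906 and 31.7% ± 1.06 of the eIF2γ genes (SD, n = 4 muscles each). *Eif4ebp2* made up 75.5% ± 3.06 and 77.2% ± 0.954 of the 4E-BP genes, and *Eif5a* 99.8% of the eIF5A genes in both groups. The ratio of *Eif4ebp2* to *Eif4e* TPM was 2.37 ± 0.267 with NT siRNAs and 2.96 ± 0.530 with *Uba1* siRNAs. It was higher in 3 of 4 pairs and lower in mouse 1, where *Eif4e* was high. The ratio of *Eif4ebp1* to *Eif4e*, 0.740 ± 0.117 and 0.850 ± 0.148, was higher in 4 of 4 pairs.

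Genes that act with the initiation factors were read from lists, each gene with the same test over all genes. Of 22 other initiation partners, 3 (13.6%) were higher and 0 lower at an unadjusted P under 0.05, compared with 16.0% and 1.98% of all genes tested, with a median log2FC of 0.083 (all genes, 0.106), or -0.024 with median-ratio scaling. *Dhx29*, for a helicase that helps ribosomes through structured leaders, was at 7.05, 6.91, 6.99 and 7.29 TPM with NT siRNAs and at 8.17, 8.79, 9.62 and 8.54 TPM with *Uba1* siRNAs. Its groups did not overlap, which held for 3 of the 22 partners (13.6%), all higher. Of all genes tested, 10.6% were higher and 1.01% lower without overlap. The log2FC of *Dhx29* was 0.28 (standard error 0.0663, limma adjusted p = 0.143; 0.17 with median-ratio scaling). Also higher at an unadjusted P under 0.05 were *Larp1*, for a regulator of ribosomal protein mRNAs (log2FC 0.23), and *Paip1*, for a partner of the poly(A)-binding protein (log2FC 0.18). With median-ratio scaling they were at 0.11 and 0.061, no longer at an unadjusted P under 0.05.

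Of the 15 genes of mTORC1 and S6 kinase control, 2 (13.3%) were higher and 0 lower, compared with 16.0% and 1.98% of all genes, and the median log2FC was 0.080, or -0.024 with median-ratio scaling. *Ddit4*, which encodes the mTORC1 inhibitor REDD1, was at 25.3, 26.3, 11.8 and 13.9 TPM with NT siRNAs and at 38.2, 44.4, 23.9 and 34.3 TPM with *Uba1* siRNAs. It was higher in every mouse, although the groups overlapped through *Uba1* replicate 3. The log2FC was 0.88 (standard error 0.275), with an adjusted p of 0.182 without and 0.0359 with the mouse as a block (limma). No other gene of these lists and no member passed an adjusted p in either of these fits, but the call was lost when the block was combined with median-ratio scaling (log2FC 0.77, adjusted p = 0.0707, limma). *Castor1*, for an arginine sensor upstream of mTORC1, had a log2FC of 0.32 (standard error 0.115, limma adjusted p = 0.210; 0.23 with median-ratio scaling).

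Of 9 tested genes for phosphatases of eIF2α and targets of the integrated stress response, 3 had a log2FC above 0 and 6 below it (all genes, 81.8% above 0), with a median of -0.23 (-0.35 with median-ratio scaling; all genes, 0.106 and 0.0036). *Ddit3*, a further gene of this list, was not analysed here. At an unadjusted P under 0.05, 0 were higher and 1 lower without the block (all genes, 16.0% and 1.98%), and 0 higher and 3 lower with it (all genes, 22.4% and 2.8%). *Ppp1r15b*, which encodes the constitutive subunit that directs phosphatase 1 to eIF2α, averaged 11.3 ± 0.958 TPM in the control muscles and 9.29 ± 0.919 TPM in those with *Uba1* siRNAs (SD, n = 4 muscles each). Pairs were lower in 4 of 4 mice with overlapping groups, and its log2FC was -0.26 (standard error 0.0867, limma adjusted p = 0.195; -0.37 with median-ratio scaling). Its stress-induced relative *Ppp1r15a* (GADD34), at 52.0 ± 12.9 TPM and 38.8 ± 8.17 TPM (SD, n = 4 muscles each), was also lower in every pair. Its log2FC of -0.41 had an unadjusted P of 0.0517 without and 0.00437 with the block (limma). *Atf4*, whose translation is favored when eIF2α is phosphorylated, had a log2FC of 0.027.

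Of the 11 elongation and termination factors tested, 2 (18.2%) were higher and 0 lower, compared with 16.0% and 1.98% of all genes, and the median log2FC was 0.034, or -0.085 with median-ratio scaling. With the block, 1 was higher (all genes, 22.4%). Those higher without the block were *Eef2k*, for the kinase that inhibits eEF2 (log2FC 0.20), and *Eef2kmt*, for a methyltransferase of eEF2 (log2FC 0.16), and only *Eef2k* was higher with it. With median-ratio scaling they were at 0.091 and 0.060, and neither had an unadjusted P under 0.05.

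Sequence shared with other genes limits some of these levels, since the handling of reads that match several genes is not stated for these data. Among the 53 tested members, 13 had no window of 50 bases in common with another annotated gene and 26 shared over 10% of their windows. The 5 with over 50% were *Eif3j2* (93.3%), *Eif4a1* (66.2%), *Eif4ebp3* (57.2%), *Eif3j1* (56.4%) and *Eif1* (54.4%). Among the members called without the block, *Eif4ebp2* shared none, *Eif2ak4* 4.90%, *Eif3f* 9.73% and *Eif4e3* 13.5%.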

How the data were processed

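RNA-seq of 8 TA muscles (4 with NT siRNAs, 4 with *Uba1* siRNAs) was analyzed. The authors trimmed paired-end reads, filtered them by quality and length, mapped them to GRCm39 in CLC Genomics Workbench, and the deposited values are TPM per gene. The annotation, the treatment of reads matching several genes and any filter on genes are not given in the sources used here, and TPM keep no depth, so no counting interval is given. All value columns were assigned to a sample.

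Groups were taken from the titles. Values were transformed to log2(TPM + 1), and genes reaching 1 TPM in 4 or more of 8 muscles were tested with limma 3.58.1 in R 4.3.3 (lmFit, eBayes with a trend, no covariate), with Benjamini-Hochberg adjustment over all genes tested. The study's methods name a Kruskal-Wallis test, which was run as an alternative, since at 4 against 4 it cannot pass an adjustment over all genes. *Uba1* alone was also compared with an exact permutation test. The script was tested on simulated data. The mouse was also fitted as a replicate block, because equal replicate numbers mark legs of 1 mouse; deviations from the group means of same-numbered muscles correlated at -0.00037, 0.20, 0.58 and 0.54 over genes. Other alternatives were a pseudocount of 0.1, no filter, a mean of 5 TPM or more, scaling by median ratios, quantile normalization, removal of mitochondrial genes before rescaling TPM, both of the first scalings with the block, and each muscle left out.

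Members with values in each muscle are those at an unadjusted P under 0.05 in either fit or with groups apart, the 3 with the largest log2FC in each direction, the highest of each role, and paralogs. The members and lists were chosen with earlier results of these data known. Sequences and shared windows come from GRCm39 and GENCODE M39 transcripts. Protein data were not analysed here.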

Additional observations from a re-analysis of the deposited data

Results flagged for a closer look

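In 3 of 106 groups of 4 muscles (53 genes, each in 2 groups), 1 muscle lay far from the other 3 by Dixon's criterion at 95%, where chance gives about 1 in 20, or 5.3. *Eif2ak1* with *Uba1* siRNAs was at 21.6 TPM in replicate 1 and at 19.5–19.8 TPM in the others. *Eif2b5* with NT siRNAs was at 36.0 TPM in replicate 3 and at 39.0–39.3 TPM in the others. *Eif3j2* with NT siRNAs was at 58.8 TPM in replicate 4 and at 46.4–47.8 TPM in the others, and *Eif3j1*, with which it shares nearly all of its coding sequence, was also highest there in its group (36.2 TPM).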

How the results depend on the processing

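No named member passed the adjusted p under any of the settings tried, and 0 members passed it in each of them. The Kruskal-Wallis setting could not pass it at 4 against 4. The number of all genes passing was 3 and became 11 when a mean of 5 TPM was required, 23 after median-ratio scaling, 28 after quantile normalization, 14 once mitochondrial genes were removed and TPM rescaled, 57 with the replicate block, 69 and 62 with the block after median-ratio scaling or quantile normalization, and 2–39 with 1 muscle left out. The Kruskal-Wallis test, which cannot pass this adjustment, gave 0 genes (2210 at an unadjusted P under 0.05). *Uba1* passed the adjusted p at a log2FC of -1.98 when a mean of 5 TPM was required and with the block, -2.09 and -2.06 with median-ratio scaling and quantile normalization (with or without the block) and -2.00 without mitochondrial genes, and ranged from -2.18 to -1.64 with 1 muscle left out. It did not pass with a pseudocount of 0.1 (adjusted p = 0.0666, limma), with no filter (0.131), or in 6 of the 8 fits with 1 muscle left out (0.0838 to 0.230), and passed without *Uba1* replicate 2 or 4.

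Members at an unadjusted P under 0.05 numbered 4 (all higher) and became 8 higher with the block, 2 higher with the Kruskal-Wallis test, 0 higher and 3 lower with median-ratio scaling, 2 higher and 3 lower with this scaling and the block, and 0 higher and 1 lower with quantile normalization, with or without the block. With 1 muscle left out they were 1–9 in all, 1–9 higher and 0–1 lower (all genes, 10.04–17.7% higher and 1.52–2.45% lower), with 1 without NT replicate 3 or *Uba1* replicate 2, 2 without *Uba1* replicate 3 and 9 without NT replicate 4. Members with a log2FC above 0 numbered 45 and became 17 with median-ratio scaling and 25 with quantile normalization, with or without the block, and 34–50 with 1 muscle left out. Their median log2FC was -0.062 with median-ratio scaling and -0.0078 with quantile normalization, with or without the block, and 0.035 to 0.098 with 1 muscle left out. The cause of these shifts was not tested.

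Among the named members, median-ratio scaling, with or without the block, reversed *Eif2ak1* (-0.099), *Eif2b5* (-0.069), *Eif2s3x* (-0.077), *Eif3h* (-0.084), *Eif4a2* (-0.10) and *Eif4g1* (-0.062). Quantile normalization, with or without the block, reversed *Eif2ak1* (-0.066), *Eif2b5* (-0.025), *Eif2s3x* (-0.031) and *Eif4a2* (-0.033). A pseudocount of 0.1 reversed *Eif4ebp3* (0.19), and leaving out mitochondrial genes reversed *Eif5a* (0.0074). With 1 muscle left out, 5 included both signs, namely *Eif2ak1* (-0.018 to 0.028), *Eif3h* (-0.0065 to 0.081), *Eif4a2* (-0.020 to 0.075), *Eif4ebp3* (-0.32 to 0.13) and *Eif5a* (-0.081 to 0.053). All others of the 20 kept their sign in each setting where they were tested. With 4 muscles a group and unknown depth, differences of under 0.175 on the log2 scale are within the interval of the median member.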
